A study of Homo sapiens with 30 samples.

Results

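Peroxiredoxins and other antioxidant enzymes were measured after irradiation with a caesium source in the established human lines GM15036 and GM15510. Both are lymphoblastoid, that is, B cells immortalised with Epstein-Barr virus. The listed genes were SOD1, SOD2, CAT, PRDX1, PRDX3, PRDX5, GPX1, GPX4, TXN and TXNRD1, and a probe set was taken where the platform annotation gave it 1 of these symbols and no other. That rule found 12 probe sets of 8 of the 10 genes, among 19071 probe sets with 1 symbol on the array. The 4 probe sets that list SOD2 also list a second gene and were left out, and PRDX5 had no entry in the annotation used here. The study had 30 Affymetrix arrays in 10 groups, 3 for each line at 1, 2.5, 5, 7.5 and 10 cGy. Doses are given here in cGy, as in the sample labels, although the series' design text writes Gy. The labels name neither an unirradiated group nor the time from irradiation to RNA, so 1 cGy of the same line was the reference, and each line is a single line from 1 source. Whether the 3 arrays of a group stand for separate cultures is not stated, and the p-values cover only the spread among them, which may be technical.

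These enzymes remove the reactive oxygen that metabolism and radiation produce. Superoxide dismutases turn superoxide into hydrogen peroxide, and catalase, glutathione peroxidases and peroxiredoxins remove the peroxide. Peroxiredoxins are recharged by thioredoxin, thioredoxin by thioredoxin reductase with NADPH, and many of these genes are targets of the transcription factor NRF2, which is held in check by KEAP1.

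Signal was the MAS5 value of a probe set on a linear scale, and each array was scaled to a common trimmed mean of 50.9 because array brightness, the trimmed mean before scaling, ran from 14.1 to 112. Brightness moved with dose: it was 69.7 ± 10.2 (SD, n = 3) at 1 cGy and 22.1 ± 10.4 at 10 cGy in GM15036, and 69.4 ± 10.5 at 1 cGy, 18.7 ± 4.48 at 2.5 cGy and 89.1 ± 23.6 at 10 cGy in GM15510. Centring the arrays on their medians in place of this scaling moved the median log2 change of all tested probe sets to −0.38 at 10 cGy in GM15036 and to −0.50 at 2.5 cGy in GM15510. The calls over all probe sets went with it, from 585 higher and 980 lower to 77 and 4251 in the first comparison and from 523 and 742 to 83 and 5618 in the second. In that setting 4 is added to unscaled signal, so it weighs more on the dimmer arrays. The part of this in these shifts was not tested. All signed changes below are relative to the scaling to a common trimmed mean. Of the B cell markers, 9 of 10 had a probe set and all 9 passed the filter on dim probe sets, with a summed signal of 1646 to 2031 over the arrays of the other 9 groups and of 2187 to 2350 at 10 cGy in GM15036. The sum of the T cell and NK cell markers was also highest there, at 63.8 to 85.9 beside at most 63.7. All of the latter markers but CD3E were too dim to pass the filter, and scaling multiplied the signal of those arrays by 1.51 to 3.61. The part of either sum in the changes at 10 cGy was not tested. Of the 5 monocyte markers 0 passed the filter, and of the 7 T cell and NK cell markers 1 passed (CD3E). Of the 2 measured erythroid markers 1 passed (HBB), and of the 4 fibroblast markers 2 passed (COL1A1 and COL1A2).

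Of the 8 genes, 5 differed among doses in at least 1 line by an F test (SOD1, PRDX1, PRDX3, GPX4 and TXN). Of all tested probe sets, 16.2% passed that test in GM15036 and 21.0% in GM15510, and the share passing in at least 1 line was not taken. Of the 5 genes, 3 passed a test of a single dose against 1 cGy. A change that did not pass is not thereby shown to be absent. The filter kept 11 of the 12 probe sets, of all 8 genes, and left out the dim CAT probe set 215573_at. Of 88 tests of a dose against 1 cGy, 5 passed limma's test at an adjusted p under 0.05, in the genes PRDX1, PRDX3 and TXN. In GM15036 the members passed 0 times at 2.5 cGy (0.548% of all tested probe sets did), 0 times at 5 cGy (0.143%), once at 7.5 cGy (3.22%) and once at 10 cGy (11.7%). At an unadjusted p under 0.05 the counts in that line were 2, 1, 2 and 4 of 11 at 2.5, 5, 7.5 and 10 cGy. In GM15510 they passed once at 2.5 cGy (9.49% of all tested probe sets), 0 times at 5 cGy (4.19%), 0 times at 7.5 cGy (1.79%), and 2 times at 10 cGy (5.91%). The counts at an unadjusted p under 0.05 were 4, 1, 0 and 5 of 11. No share of all tested probe sets was taken at that unadjusted threshold in either line, so no excess can be read from these counts. Median centring called 8 of 11 at 10 cGy in GM15036, beside 4328 of all 13329 tested probe sets. At 2.5 cGy in GM15510 it called 8 of 11, beside 5701 of all 13329. An F test over the 5 doses passed for 4 of 11 members in GM15036, 36.4% beside 16.2% of all tested probe sets, and for 4 of 11 in GM15510, beside 21.0%. Those were SOD1, PRDX3, GPX4 and the TXN probe set 208864_s_at in GM15036, and SOD1, PRDX1, PRDX3 and the TXN probe set 216609_at in GM15510. The TXN probe set 208864_s_at lost its F test in GM15036 without 7.5 cGy replicates a (adjusted p = 0.0526) and c (0.112). The arrays of a dose did not overlap those of 1 cGy for 3, 1, 5 and 7 of the 11 members in GM15036 at 2.5, 5, 7.5 and 10 cGy, beside 19.8%, 16.4%, 19.8% and 27.0% of all tested probe sets. In GM15510 this held for 3, 2, 1 and 6 members, beside 26.2%, 23.5%, 21.0% and 27.1%. The median log2 change of the 11 members at 10 cGy was −0.22 in GM15036 and −0.031 in GM15510, beside 0.030 and −0.0049 over all tested probe sets.

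**Figure D1:**
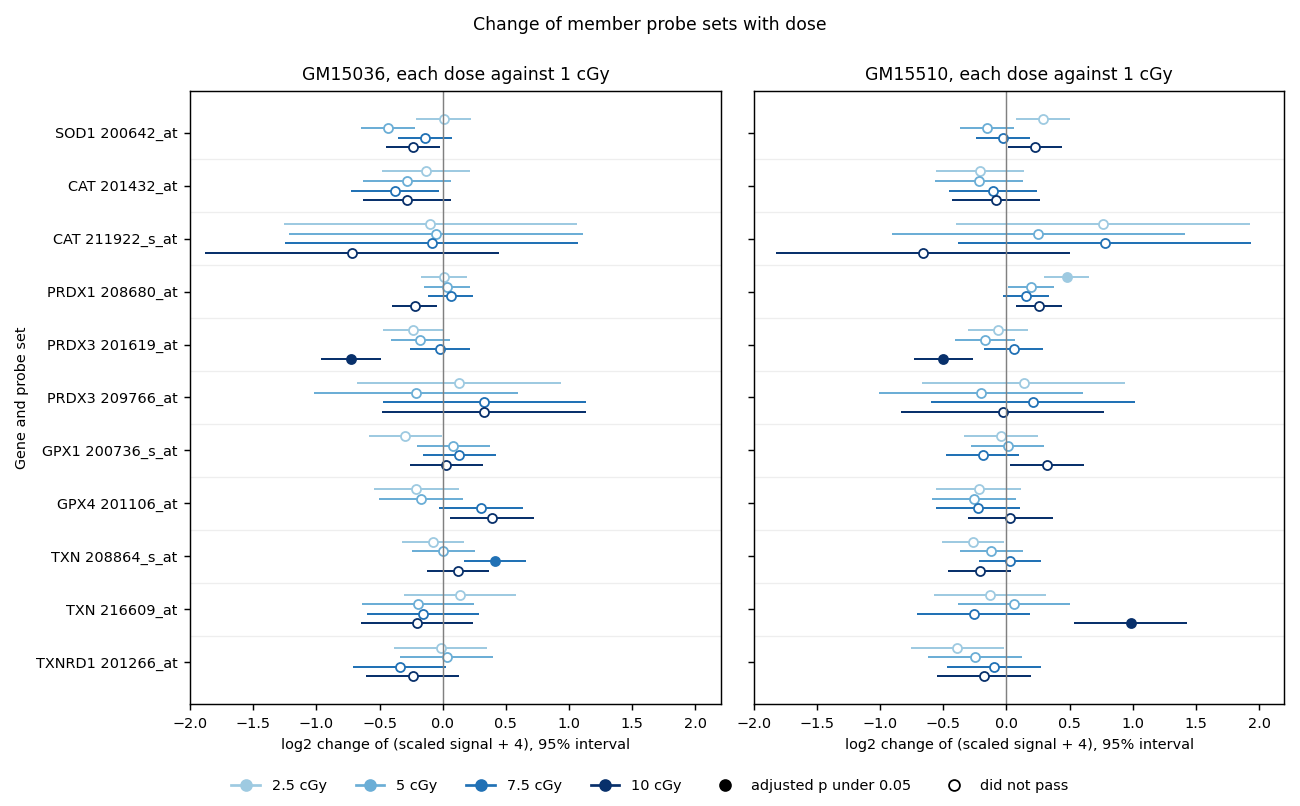
The log2 change of each of the 11 tested probe sets (rows) at each dose against 1 cGy, for GM15036 on the left and GM15510 on the right, with 95% intervals from limma, filled where the adjusted p was under 0.05. The filled points are PRDX3 at 10 cGy in both lines, PRDX1 at 2.5 cGy and the TXN probe set 216609_at at 10 cGy in GM15510, and the TXN probe set 208864_s_at at 7.5 cGy in GM15036.

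PRDX3, the peroxiredoxin of mitochondria, was the member that fell in both lines, each time at 10 cGy. Its probe set 201619_at read 304, 302 and 281 on the 3 arrays of GM15036 at 1 cGy (scaled signal throughout). At 10 cGy the same probe set read 160, 159 and 218, each below all 12 other arrays of the line, whose lowest value was 219.6. It fell by 0.73 on the log2 scale (SE 0.112, n = 3 per dose, limma adjusted p = 3.35e-05), a 1.66-fold difference. In GM15510 PRDX3 read 325, 310.2 and 342 at 1 cGy. At 10 cGy it read 216, 239 and 233, again below all 12 other arrays, which started at 275. The fall was 0.50 (SE 0.112, n = 3 per dose, limma adjusted p = 0.00439), or 1.41-fold. A position outside all other arrays of the line was found for 5.81% of tested probe sets at 10 cGy in GM15036 and 5.64% in GM15510, and 0.615% of tested probe sets passed as lower at 10 cGy in both lines. At the doses in between, PRDX3 changed by −0.24, −0.18 and −0.024 in GM15036 and by −0.067, −0.17 and 0.056 in GM15510 at 2.5, 5 and 7.5 cGy, and none of these 6 passed limma's test. The interaction of line and dose did not pass either (F test adjusted p = 0.692).

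Array brightness at 1 and 10 cGy was 69.7 and 22.1 in GM15036, and 69.4 and 89.1 in GM15510. The log2 ratio of the 3′ to the 5′ control probe set of ACTB is a sign of RNA quality. Between 1 and 10 cGy it went from 4.48 ± 0.204 to 5.20 ± 0.153 (SD, n = 3) in GM15036. In GM15510 it went from 3.75 ± 0.49 to 5.16 ± 0.0964. The same ratio of GAPDH was 2.51 ± 0.171 and 2.84 ± 0.119 at these doses in GM15036, and 2.47 ± 0.108 and 2.45 ± 0.184 in GM15510. Over the 10 groups the mean log2 ratio ran from 3.75 to 5.51 for ACTB and from 2.27 to 2.84 for GAPDH. The 3′ signal was thus well above the 5′ signal in every group, the 1 cGy references included. The part of these ratios in the PRDX3 result was not tested. Both PRDX3 falls passed without each of the 30 arrays and with brightness as a covariate, where they were 0.62 and 0.52. Centring on the medians gave a fall of 0.46 in GM15510 that did not pass (adjusted p = 0.28, within 0.00312 to 0.28 over the 10 alternatives). The second PRDX3 probe set, 209766_at, was dim, at means of 12.3 to 18.5 over the 10 groups. It had 0.33 (95% interval −0.47 to 1.12) at 10 cGy in GM15036, an interval that leaves out the −0.73 of the first probe set. In GM15510 it had −0.031 (−0.83 to 0.77), an interval that takes in the −0.50 of the first. Adding 4 before the log shrinks the changes of a probe set this dim.

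PRDX1, the abundant peroxiredoxin of the cytosol, rose in GM15510 at 2.5 cGy after scaling to the trimmed mean, but not after centring on the medians. The 3 arrays read 286.2, 286.8 and 294 at 1 cGy and 430, 381 and 402 at 2.5 cGy. These were the lowest and the highest groups of the line, and neither overlapped any other dose, a position held by 2.18% of tested probe sets at 1 cGy and 3.21% at 2.5 cGy. The gap at 2.5 cGy was narrow, with a lowest array of 380.5 beside 380.0 for the highest of the other 12. The rise was 0.48 (SE 0.085, n = 3 per dose, limma adjusted p = 3.52e-04), or 1.39-fold, and passed without each array. Brightness was 18.7 at 2.5 cGy and 69.4 at 1 cGy. With brightness as a covariate the change was 0.41 and did not pass (adjusted p = 0.144), with centring after scaling it was 0.21 (0.157), and with centring on the medians it turned to −0.28 (0.167, the highest over its alternatives). At 5, 7.5 and 10 cGy PRDX1 had 0.19, 0.15 and 0.26 in GM15510, and the arrays of each dose lay above those of 1 cGy, although none passed.

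In GM15036 PRDX1 was level from 1 to 7.5 cGy and lowest at 10 cGy. The group means were 408 ± 28.6, 411 ± 11.1, 418 ± 17.7 and 425 ± 13.6 (SD, n = 3) at 1, 2.5, 5 and 7.5 cGy, neighbours that differ by less than their spread. At 10 cGy the arrays read 335, 354 and 356, below all 12 others, which started at 378. A position outside the other arrays was held by 5.81% of tested probe sets in that group. The change of −0.22 (SE 0.085, n = 3) had an adjusted p of 0.0866 and did not pass. It passed with centring on the medians (−0.86, adjusted p = 7.47e-05) and with centring after scaling. The dose pattern of PRDX1 differed between the lines (interaction F test adjusted p = 0.00482, 20.5% of tested probe sets passed it), and that call stood under all 10 alternatives and without each array.

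**Figure D2:**
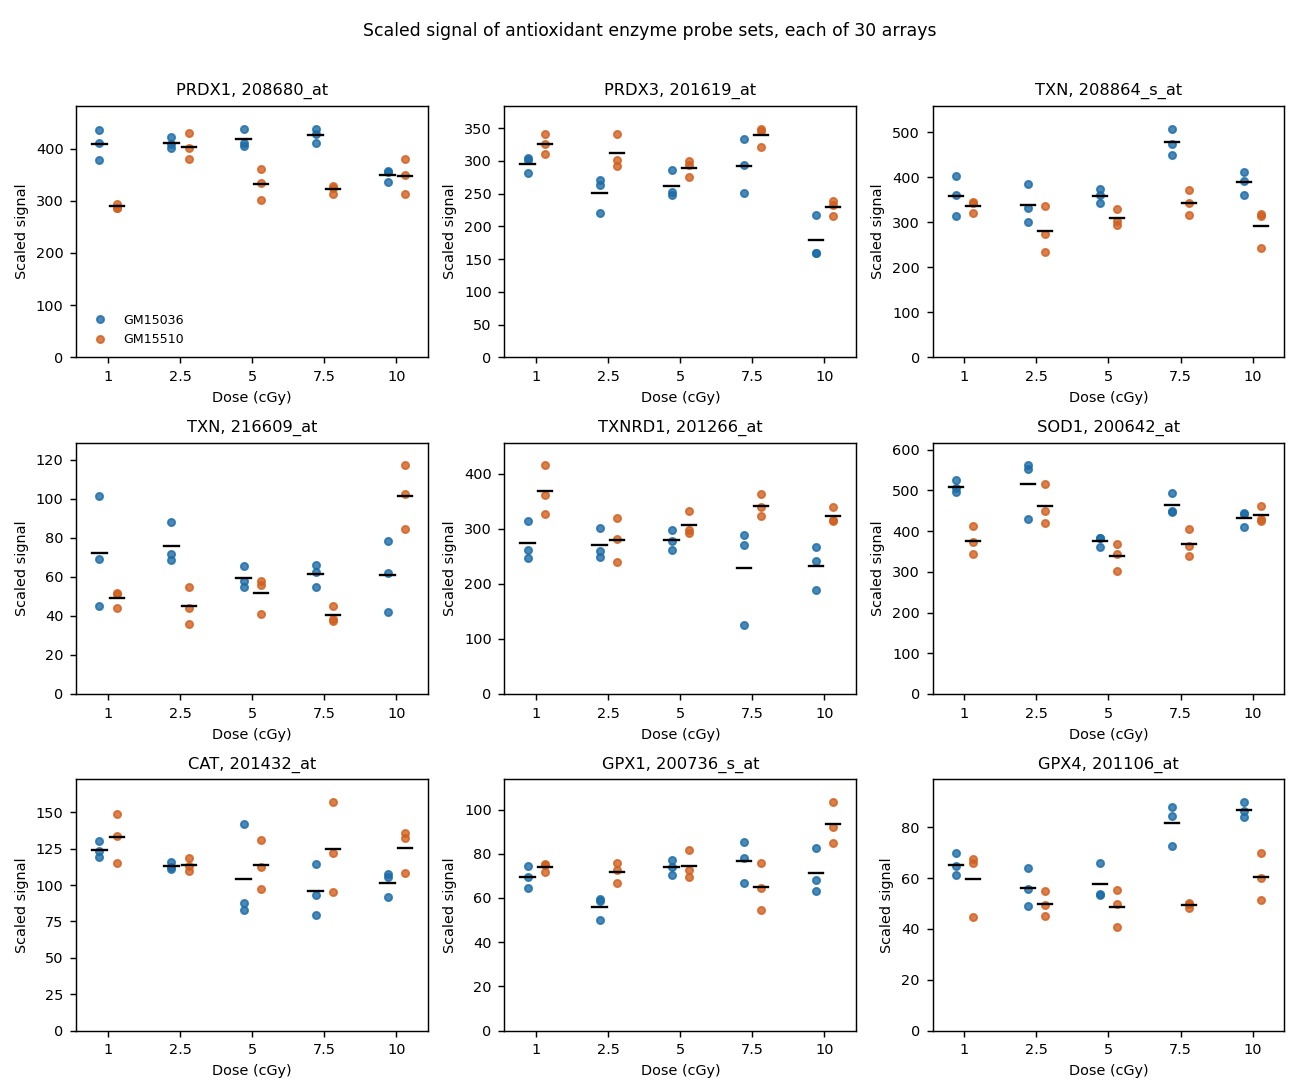
Scaled signal (vertical axis, from 0) of 9 probe sets on each of the 30 arrays by dose in cGy (horizontal axis), GM15036 in blue and GM15510 in orange, with the mean of each group of 3 arrays as a black line. PRDX3 is lowest at 10 cGy in both lines, and the TXN probe set 216609_at is highest at 10 cGy in GM15510, at 84.4 to 117.

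The promoters of 6 of the 8 genes were in the RefSeq table of build GRCh38.p14, each window running from 250 bases before to 50 after a start site. PRDX3 is shown as the gene that fell in both lines, TXN as the gene that rose at 10 cGy in 1 probe set, and TXNRD1 as the gene whose windows held the core of the antioxidant response element, the motif bound by NRF2. Capitals mark matches, on either strand, to that core (TGACNNNGC) or to the GC box (GGGCGG), and the 2 motifs shared no base.
PRDX3 (chr10:119178763-119179062, minus strand): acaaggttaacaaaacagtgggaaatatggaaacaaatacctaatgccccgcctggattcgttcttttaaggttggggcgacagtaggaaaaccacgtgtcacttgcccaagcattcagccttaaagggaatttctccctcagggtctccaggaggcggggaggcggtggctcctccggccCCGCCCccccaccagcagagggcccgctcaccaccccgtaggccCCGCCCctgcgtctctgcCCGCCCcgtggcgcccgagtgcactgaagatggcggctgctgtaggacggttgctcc
TXN (chr9:110256458-110256757, minus strand): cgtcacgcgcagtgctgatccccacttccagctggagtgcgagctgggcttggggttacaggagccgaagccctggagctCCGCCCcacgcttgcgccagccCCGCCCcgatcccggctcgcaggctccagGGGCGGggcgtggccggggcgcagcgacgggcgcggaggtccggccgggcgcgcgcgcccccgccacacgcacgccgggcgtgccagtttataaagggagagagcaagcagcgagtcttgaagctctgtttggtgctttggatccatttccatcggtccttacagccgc
TXNRD1 (chr12:104215529-104215828, plus strand): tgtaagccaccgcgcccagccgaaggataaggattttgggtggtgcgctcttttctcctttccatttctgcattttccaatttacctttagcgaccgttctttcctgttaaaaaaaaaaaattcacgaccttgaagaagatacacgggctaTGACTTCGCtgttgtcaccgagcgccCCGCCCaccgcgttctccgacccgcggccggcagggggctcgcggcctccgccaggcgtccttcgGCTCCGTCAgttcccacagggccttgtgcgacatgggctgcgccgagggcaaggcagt
The PRDX3 window held 3 GC boxes and the TXN window 3, beside 45.0% of all 35116 promoter windows that held at least 1. The TXNRD1 window shown held 2 matches to the antioxidant response core and a second TXNRD1 start site 1, and 13.3% of all windows held a match. The windows of CAT, GPX1, GPX4, PRDX3 and TXN held none. A match describes the letters and is not a measured binding site.

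TXN encodes thioredoxin, the small protein that reduces peroxiredoxins, and its 2 probe sets gave different patterns. The probe set 216609_at rose in GM15510 at 10 cGy: the arrays read 51.6, 51.0 and 44.3 at 1 cGy and 102.3, 117 and 84.4 at 10 cGy. All 3 arrays at 10 cGy lay above the 12 others of the line, whose highest value was 57.9. A position outside the other arrays was held by 5.64% of tested probe sets in that group. The log2 ACTB ratio was also highest in that group of the line (5.16, beside 3.75 at 1 cGy). The GAPDH ratio was 2.45 there, beside 2.47 at 1 cGy, and the part of these ratios was not tested. The rise was 0.98 (SE 0.215, n = 3 per dose, limma adjusted p = 0.00337), or 1.98-fold, and it passed under all 10 alternatives and without each array. In GM15036 the same probe set read 45.2, 69.3 and 101.3 at 1 cGy and 78.2, 41.9 and 62.2 at 10 cGy, groups that overlap, and its change was −0.20 (95% interval −0.64 to 0.24) and did not pass (adjusted p = 0.627, and 0.0224 with −0.70 after centring on the medians). The interaction of line and dose passed for this probe set (F test adjusted p = 0.00341), but not with brightness as a covariate (0.105, the highest of its alternatives).

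The brighter TXN probe set, 208864_s_at, was lower at 10 cGy in GM15510, at 315, 242 and 318 beside 343, 321 and 345 at 1 cGy, and its change of −0.21 (SE 0.117, adjusted p = 0.389) did not pass. In GM15036 it was highest at 7.5 cGy, where it read 475, 451 and 508 against 361, 315 and 402 at 1 cGy. That rise of 0.41 (SE 0.117, n = 3 per dose) had a limma adjusted p of 0.0439, and 1.62% of tested probe sets held such a position outside all other arrays of the line at 7.5 cGy. The call was lost when 1 cGy replicate a (adjusted p = 0.0823) or b (0.257) was left out, or 7.5 cGy replicate a (0.0732), b (0.0765) or c (0.182), or any of 6 arrays of other groups (0.0501 to 0.0531), which were GM15036 2.5 cGy replicate c, each 5 cGy array of that line, and GM15510 1 cGy replicates 1 and 3. It also failed under 7 of the 10 alternatives, with centring on the medians giving 0.11 (0.789).

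TXNRD1, the cytosolic thioredoxin reductase, did not pass any dose test in either line. In GM15036 its group means ran from 229 ± 89.8 at 7.5 cGy to 279 ± 17.7 at 5 cGy, and the wide spread at 7.5 cGy came from 1 array, replicate a, at 126 beside 290 and 271. In GM15510 the means ran from 280 ± 39.5 (SD, n = 3) at 2.5 cGy to 368 ± 44.4 at 1 cGy. The largest change there was −0.39 at 2.5 cGy (95% interval −0.75 to −0.029, adjusted p = 0.176), where all 3 arrays lay below those of 1 cGy, as 26.2% of tested probe sets had groups without overlap.

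SOD1, the copper and zinc superoxide dismutase of the cytosol, differed among doses in both lines and had its lowest mean at 5 cGy in each. In GM15036 the 5 cGy arrays read 383, 362 and 383 and the 1 cGy arrays 505, 526 and 497. All 3 were below the 12 other arrays, which started at 411, a position that 2.98% of tested probe sets held at 5 cGy. The change of −0.43 (SE 0.101, n = 3) had an adjusted p of 0.0656 and did not pass, while the F test over doses did (adjusted p = 0.00663). In GM15510 SOD1 read 303, 369 and 344 at 5 cGy and 344, 373 and 413 at 1 cGy, groups that overlap, and 449.8, 419 and 516 at 2.5 cGy, where the change against 1 cGy was 0.29 (adjusted p = 0.0652). The F test passed there too (0.00521), and both F tests passed under all 10 alternatives and without each array. The interaction did not pass (0.104).

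CAT encodes catalase, which splits hydrogen peroxide in peroxisomes, and it passed no dose test. Its bright probe set, 201432_at, had its highest mean at 1 cGy in both lines, 124 ± 5.46 and 132.8 ± 16.7 (SD, n = 3), and changes of −0.38 to −0.13 in GM15036 and −0.22 to −0.080 in GM15510. The largest, at 7.5 cGy in GM15036, had a 95% interval of −0.72 to −0.039 and an adjusted p of 0.25. The probe set 211922_s_at was dim, with arrays from 0.84 to 24.7, and its standard error of 0.567 for any dose change leaves wide limits. The untested probe set 215573_at ran from 0.406 to 18.8.

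GPX1 and GPX4 are selenium enzymes, the first reducing soluble peroxides with glutathione and the second reducing peroxides of membrane lipids. GPX4 differed among doses in GM15036 (F test adjusted p = 0.0123). Its arrays read 72.5, 84.2 and 87.9 at 7.5 cGy and 86.4, 89.9 and 84.1 at 10 cGy, and 69.7, 61.3 and 64.8 at 1 cGy. Arrays of the 2 higher doses lay above those of 1 cGy, as did 19.8% (7.5 cGy) and 27.0% (10 cGy) of tested probe sets in 1 direction or the other. The single changes of 0.30 and 0.39 did not pass (adjusted p = 0.386 and 0.115). The F test did not pass with centring on the medians, with centring after scaling or with brightness as a covariate (highest adjusted p = 0.397). Brightness at 7.5 and 10 cGy was 32.4 and 22.1. In GM15510 GPX4 had means of 48.6 to 60.3, and its F test did not pass (0.407).

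GPX1 passed neither F test (adjusted p = 0.148 in GM15036 and 0.0687 in GM15510). In GM15036 it was lowest at 2.5 cGy, at 58.6, 59.4 and 50.03, and in GM15510 highest at 10 cGy, at 103, 85.0 and 92.2 beside 75.2, 71.7 and 75.0 at 1 cGy. Each of these groups lay outside the 12 other arrays of its line, as did 1.54% of tested probe sets at 2.5 cGy in GM15036. The changes against 1 cGy were −0.30 (95% interval −0.58 to −0.013) and 0.32 (0.036 to 0.60), and neither passed (adjusted p = 0.493 and 0.215).

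**Figure D3:**
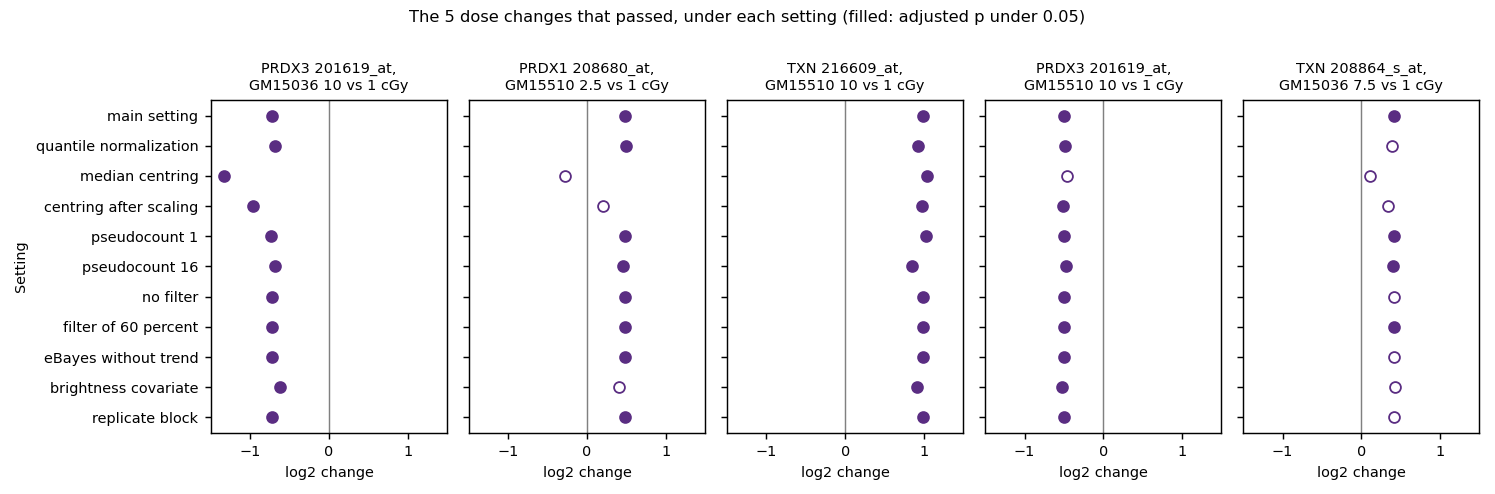
The 5 dose changes of members that passed (panels, log2 change on the horizontal axis) as reported (main) and under 10 alternatives (rows), filled where the adjusted p was under 0.05. PRDX1 in GM15510 turns from 0.48 to −0.28 with centring on the medians, whereas the TXN probe set 216609_at stays between 0.84 and 1.04.

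Averaged over the 5 doses, 8 of 11 member probe sets (72.7%) differed between GM15510 and GM15036, 3 higher and 5 lower in GM15510, beside 47.2% of all tested probe sets (20.5% higher and 26.7% lower). With centring on the medians 4 of 11 differed, and no count over all tested probe sets is given beside it. Most members were bright, so no excess can be read from these shares. TXNRD1 was higher in GM15510 by 0.35 (SE 0.079, 15 arrays per line, limma adjusted p = 4.44e-04). PRDX3 was higher there by 0.24 (adjusted p = 2.08e-04), and both passed under all 10 alternatives and without each array. GPX4 was lower in GM15510 by 0.34 (adjusted p = 1.58e-04), the TXN probe set 208864_s_at by 0.29 (1.84e-05) and PRDX1 by 0.25 (1.41e-06). SOD1 was lower by 0.21 (2.46e-04). These 4 passed without each array but not with centring on the medians (adjusted p = 0.0879, 0.134, 0.229 and 0.53), and SOD1 failed with centring after scaling too. CAT 201432_at (0.18, adjusted p = 0.0493) kept its call without only 7 of the 30 arrays, with the highest adjusted p, 0.108, without GM15510 7.5 cGy replicate 2. The TXN probe set 216609_at (−0.24, 0.0374) kept its call without 17 of 30, with the highest, 0.0879, without GM15036 1 cGy replicate c. The line difference in PRDX1 was not the same at each dose: the means were 408 and 289 at 1 cGy, 411 and 404 at 2.5 cGy and 348 and 347 at 10 cGy in GM15036 and GM15510.

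**Figure D4:**
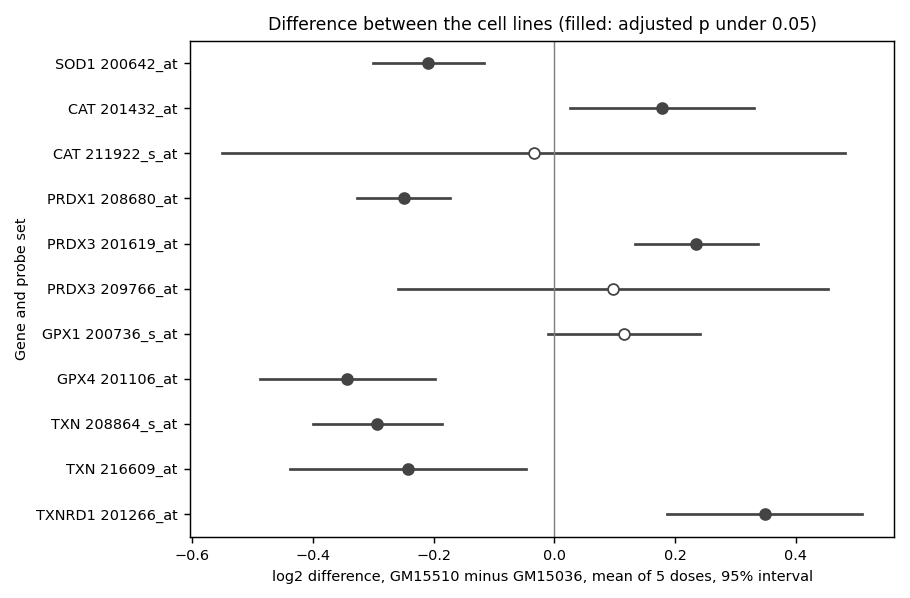
Difference between the lines in log2 units (GM15510 minus GM15036, mean of 5 doses, 95% interval) for the 11 tested probe sets, filled where the adjusted p was under 0.05. TXNRD1, PRDX3 and CAT 201432_at lie to the right of 0, and GPX4, both TXN probe sets, PRDX1 and SOD1 to the left.

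The other antioxidant genes were taken as 5 lists of 52 genes, of which 46 had a probe set and 44 were tested, 1 probe set a gene. Of 352 tests of these genes against 1 cGy, 20 passed. At 10 cGy in GM15036 6 of 44 fell and 0 rose, 13.6% beside 11.7% of all tested probe sets, and the median of the 44 was −0.13. At 10 cGy in GM15510 3 rose and 2 fell (11.4% beside 5.91%), with a median of 0.086. Fewer passed at 7.5 cGy in GM15036 (2, both lower, 4.55% beside 3.22%), and 0 at 2.5 and 5 cGy there (beside 0.548% and 0.143%). At 2.5, 5 and 7.5 cGy in GM15510 3, 3 and 1 passed. These were 6.82%, 6.82% and 2.27%, beside 9.49%, 4.19% and 1.79% of all tested probe sets. Between the lines 23 of 44 differed, 10 higher and 13 lower in GM15510, or 52.3% beside 47.2%.

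Among 11 tested genes of the thioredoxin and peroxiredoxin list, PRDX4, the peroxiredoxin of the endoplasmic reticulum, moved in opposite directions in the lines at 7.5 cGy. It fell by 0.45 in GM15036 (SE 0.074, n = 3 per dose, limma adjusted p = 4.13e-04) and rose by 0.49 in GM15510 (2.57e-04), and its interaction of line and dose passed under all 10 alternatives (adjusted p = 3.22e-07). Both changes passed without each array, but with centring on the medians the rise in GM15510 was 0.42 and did not pass (adjusted p = 0.414). TXNIP, the inhibitor of thioredoxin, fell in GM15510 by 0.99 at 10 cGy (SE 0.172, adjusted p = 2.77e-04) under all 10 alternatives and without each array. It also fell there by 0.78 at 5 cGy (0.0054), a call lost without 5 cGy replicate 2b (0.0569) and with brightness as a covariate (0.0977). TXNL1, a thioredoxin-like protein bound to the proteasome, fell in GM15036 by 0.50 at 10 cGy (adjusted p = 5.3e-04) and passed without each array, but with brightness as a covariate had an adjusted p of 0.13. PRDX4 also fell by 0.24 at 10 cGy in GM15036 (0.0304) and rose by 0.30 at 5 cGy in GM15510 (0.0128). The first call was lost when 1 cGy replicate b (0.15) or c (0.0703) or 10 cGy replicate c (0.129) was left out, the second without GM15510 1 cGy replicates 1 (0.0562) and 2 (0.0533) and 5 cGy replicate 2b (0.0569). The rise at 5 cGy turned to −0.11 with centring on the medians. Averaged over doses, 6 of the 11 differed between the lines, 4 higher and 2 lower in GM15510, or 54.5% beside 47.2% of all tested probe sets. The 4 higher were TXNIP (1.00), GLRX (0.53, a glutaredoxin), PRDX4 (0.43) and TXNL1 (0.34). Each of these 4 passed under all 10 alternatives and without each array (highest adjusted p = 1.22e-04).

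Of 13 tested genes of glutathione synthesis and use, 3 fell and 0 rose in GM15036 at 10 cGy, where 11.7% of all tested probe sets passed, 585 higher and 980 lower. MGST3 and MGST2, microsomal glutathione transferases, had −1.53 (adjusted p = 0.00397) and −0.56 (0.0165), and GCLM, the modifier subunit of the enzyme that starts glutathione synthesis, −0.77 (0.0271). With brightness as a covariate none of the 3 passed (adjusted p = 0.183, 0.564 and 0.859). Brightness was 57.9 to 76.0 on the 1 cGy arrays and 14.1 to 33.8 on the 10 cGy arrays of that line. A call lost with this covariate therefore cannot be told from a loss of precision. The MGST3 call was lost without 10 cGy replicate b (0.0549), that of MGST2 when 1 cGy replicate b (0.129) or c (0.0507) or 10 cGy replicate a (0.124) was left out, and that of GCLM without 1 cGy replicates a (0.0577) and b (0.114) and 10 cGy replicates a (0.0785) and b (0.191). MGST2 had also fallen by 0.77 at 7.5 cGy in that line (0.00356), without each array, though not with brightness as a covariate (0.103). In GM15510 GCLC, the catalytic subunit of the same enzyme, fell by 0.75 at 2.5 cGy (0.0318), and GSTO1, an omega-class glutathione transferase, rose by 0.40 at 5 cGy (0.0397). GCLC had −0.37 with brightness as a covariate (0.729) and lost its call without 1 cGy replicates 1 (0.0772), 2 (0.101) and 3 (0.0813) and 2.5 cGy replicate 2 (0.126). GSTO1 did so without 1 cGy replicates 1 (0.183) and 3 (0.129) and 5 cGy replicates 2b (0.234) and 3 (0.0814), and turned to −0.0053 with centring on the medians.

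Of 6 tested genes of NADPH supply, IDH1, the cytosolic isocitrate dehydrogenase, fell by 0.50 at 10 cGy in GM15036 (adjusted p = 0.0158), and TKT, the transketolase of the pentose phosphate pathway, rose by 0.45 at 10 cGy in GM15510 (0.0158). IDH1 lost its call without 1 cGy replicate a (0.0581) and 10 cGy replicates a (0.111) and c (0.0736), and with brightness as a covariate (0.396). TKT lost it without 1 cGy replicates 1 (0.0738) and 2 (0.0586) and 10 cGy replicates 1 (0.0517) and 2 (0.0582), and with centring on the medians (0.209). Of 8 tested genes around KEAP1 and NRF2, NFE2L2, the gene of NRF2 itself, fell by 0.53 at 10 cGy in GM15510 (0.0177). That call was lost without 1 cGy replicates 1 (0.063) and 3 (0.0642) and 10 cGy replicate 3 (0.196), and with centring on the medians (0.27). At 2.5 cGy in that line SQSTM1, an autophagy receptor that binds KEAP1, fell by 1.24 (0.0217), and NQO1, a quinone reductase, rose by 0.53 (0.0429). SQSTM1 lost its call without 1 cGy replicates 1 (0.0568), 2 (0.0508) and 3 (0.0801) and 2.5 cGy replicate 3 (0.27, with −0.53), and had −0.16 with brightness as a covariate. NQO1 lost it without 1 cGy replicates 1 (0.0613), 2 (0.234) and 3 (0.0561) and 2.5 cGy replicates 1 (0.135) and 3 (0.185), and turned to −0.12 with centring on the medians. In GM15036 0 of these 8 passed at any dose. Of the 6 other antioxidant proteins, PARK7, a redox-sensitive protein also known as DJ-1, and MSRA, a methionine sulfoxide reductase, rose at 10 cGy in GM15510 by 0.32 (0.0154) and 0.70 (0.0458). PARK7 lost its call without 1 cGy replicates 1 (0.0822) and 3 (0.0796) and 10 cGy replicate 1 (0.0656), and with centring on the medians (0.325). MSRA kept its call without 18 of the 30 arrays and lost it without 1 cGy replicates 1 (0.0654), 2 (0.153) and 3 (0.153), 10 cGy replicates 2 (0.132) and 3 (0.273), and 7 arrays of other groups (highest 0.0528).

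**Figure D5:**
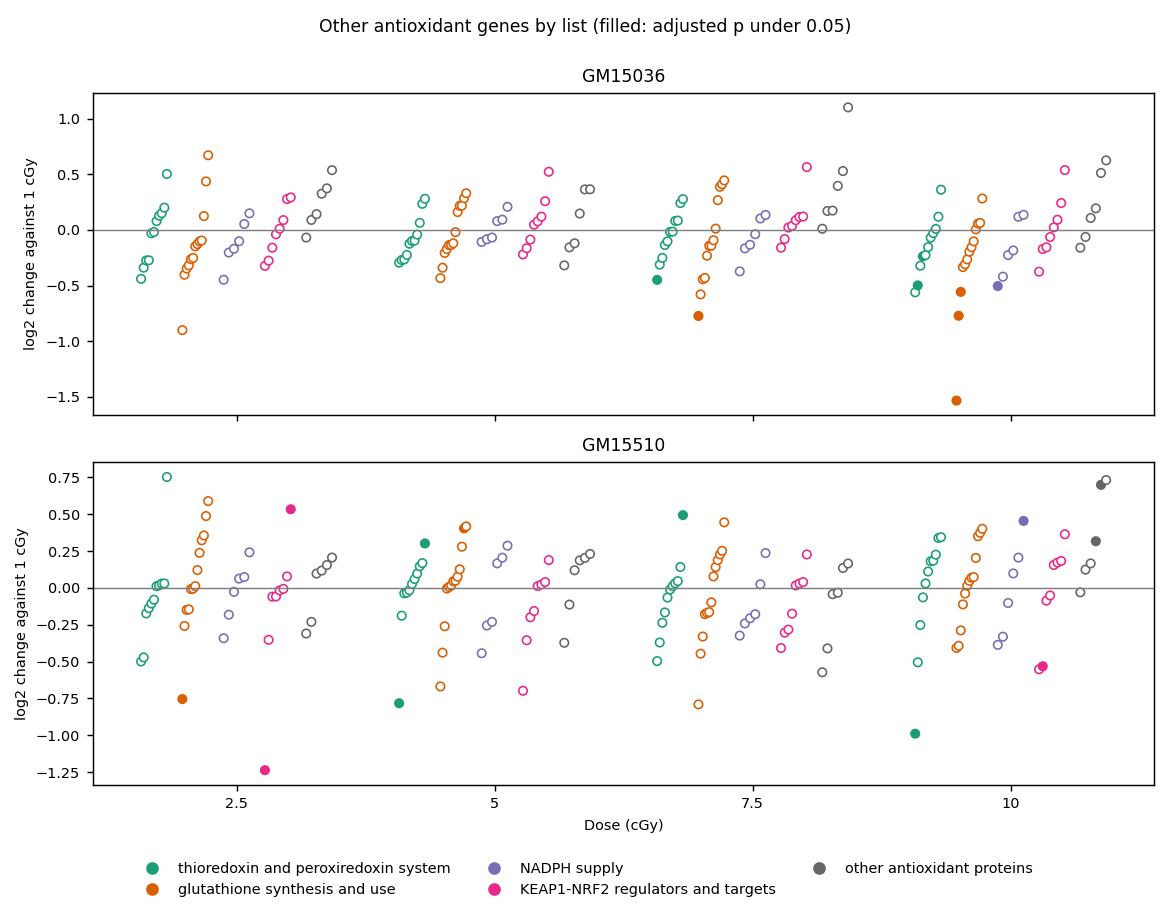
The log2 change against 1 cGy of the 44 tested genes of the 5 lists (colours) at each dose in cGy, GM15036 above and GM15510 below, filled where the adjusted p was under 0.05. At 10 cGy the 6 filled points of GM15036 all lie below 0, down to MGST3 at −1.53, and those of GM15510 lie on both sides.

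For each member probe set that passed an F test over doses, the probe set of another gene with the most similar 10 group means was found among at least 11647 probe sets. These were HPRT1 for PRDX3 (Pearson r = 0.919), PRPS1 for PRDX1 (0.95), COX15 for SOD1 (0.959) and PRMT7 for GPX4 (0.96). For TXN they were PXMP2 for 208864_s_at (0.962) and MCL1 for 216609_at (0.949). The 10 means share arrays, brightness and scaling between genes, so these values only describe the pattern.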

How the data were processed

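The authors deposited 1 intensity per probe set and array on a linear scale, made with MAS5 according to the submitters' processing notes. Its version and settings are not given in the sources used here. Among 22283 probe sets, the annotation gave 1 gene symbol for 19071, more for 1043 and none for 2169, and RefSeq (GRCh38.p14) gave current symbols for 19059 by gene ID. Arrays were brought to a common trimmed mean (2 to 98 percent of values), 4 was added and log2 taken, which shrinks the changes of dim probe sets. The 68 control probe sets and, of the others, the 40 percent with the lowest mean over all arrays were left out, and 13329 were tested. The number of arrays limits the precision.

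Models were fitted in R 4.3.3 by limma 3.58.1 (lmFit on 10 groups, eBayes with an intensity trend, two-sided, 20 residual and 12.3 prior degrees of freedom), with Benjamini-Hochberg adjustment over all tested probe sets and a threshold of 0.05, and were tested on simulated data. All probe sets of the members are given. From each list of other genes, those past the threshold against 1 cGy were named, up to 4 per comparison with the smallest adjusted p, and for the line difference those of the thioredoxin list. Each listed gene had 1 probe set, that with the highest mean, with _x_at and _s_at sets taken only for lack of others. The members and lists were chosen with earlier results of these data known. The alternatives were 3 other normalizations, pseudocounts of 1 and 16, 2 other filters (none, 60 percent), eBayes with no trend, brightness as a covariate, the replicate label as a block, and leaving out each array. Arrays of a group correlated at 0.901 to 0.972, and 0 pairs were identical.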

Additional observations from a re-analysis of the deposited data

Results flagged for a closer look

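The dose pattern of 2 member probe sets differed between the lines by a test of the line by dose interaction, 18.2% of the 11 beside 20.5% of all tested probe sets. For PRDX1 (208680_at) the F test had an adjusted p of 0.00482: in GM15036 the mean was lowest at 10 cGy (348 ± 11.6, SD, n = 3), and in GM15510 lowest at 1 cGy (289 ± 4.54) and highest at 2.5 cGy (404 ± 24.8). For the TXN probe set 216609_at it had an adjusted p of 0.00341, with means of 60.8 ± 18.2 in GM15036 and 101.3 ± 16.4 in GM15510 at 10 cGy. The TXN call did not pass with brightness as a covariate (0.105). Brightness at 10 cGy was 22.1 in the first line and 89.1 in the second.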

How the results depend on the processing

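The counts of member probe sets that passed, out of 11, moved with the scaling. Median centring gave 0 in place of 1 at 7.5 cGy and 8 in place of 1 at 10 cGy in GM15036. Over all 13329 tested probe sets the calls there were 573 in place of 429 and 4328 in place of 1565. In GM15510 median centring gave 8 in place of 1 at 2.5 cGy, 6 in place of 0 at 5 cGy and 1 in place of 2 at 10 cGy. Over all 13329 the calls at 2.5 and 5 cGy were 5701 in place of 1265 and 1967 in place of 559. Median centring gave 4 in place of 8 for the line difference, 10 in place of 4 for the doses of GM15510 and 8 in place of 2 for the interaction. For these, and for 10 cGy in GM15510, no count over all tested probe sets is given here, so they cannot be read as results about the members. Centring after scaling gave 0 at 7.5 and 4 at 10 cGy in GM15036, 4 at 2.5 cGy in GM15510, 7 for the doses of GM15510 and 5 for the interaction. At 7.5 cGy in GM15036 the count was 0 also with quantile normalization, no filter, eBayes without a trend, brightness as a covariate and the replicate block, and at 5 cGy it was 1 in place of 0 with quantile normalization and with a filter of 60 percent, where fewer probe sets were tested. That filter gave 2 at 2.5 cGy in GM15510. Brightness as a covariate gave 0 at 2.5 cGy in GM15510, 2 in place of 4 for the doses of GM15036 and 1 for the interaction. Since brightness moved with dose, a call lost with this covariate, here or above, cannot be told from a loss of precision. For the settings other than median centring no counts over all tested probe sets are given here. Their member counts show only that the calls moved. The cause of these shifts was not tested beyond what each setting changes.

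Leaving out each array gave 0 to 1 at 5 and at 7.5 cGy in GM15036, 1 to 3 at 2.5 cGy and 2 to 3 at 10 cGy in GM15510, 3 to 4 for the doses of GM15036, 4 to 5 for those of GM15510, 2 to 3 for the interaction and 6 to 8 for the line difference. Called changes turned sign only with median centring: PRDX1 at 2.5 cGy (−0.28), PRDX4 (−0.11) and GSTO1 (−0.0053) at 5 cGy and NQO1 at 2.5 cGy (−0.12), all in GM15510. The replicate labels did not pair the arrays: of 30 pairs of arrays with the same label in each line, 0 correlated over 0.1 in their deviations (medians 4.9e-04 in GM15036 and −0.0018 in GM15510), and 5 and 6 of 15 arrays correlated best with their own label. With the replicate block, the TXN probe set 208864_s_at at 7.5 cGy in GM15036 no longer passed. Dim probe sets limit CAT 211922_s_at and PRDX3 209766_at, with standard errors of 0.567 and 0.391.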
